A study of Mus musculus with 19 samples.

Results

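The genes described here encode the enzymes and carriers of the urea cycle and of amino acid catabolism in mouse hepatocytes. They are 39 genes listed by symbol and grouped by pathway, and all 39 were found among the 35274 genes of the count tables and passed the filter on low counts. RNA was sequenced from 3 hepatocyte populations with 5 biological samples each, going by their titles. GREEN samples were labelled as DR-derived hepatocytes of injured liver, an abbreviation that the labels do not spell out. RED samples were native tdTomato hepatocytes of injured liver, and CTL samples native hepatocytes taken from healthy livers. All groups, controls included, carried OPN-CreERT2;Rosa26R-mT/mG, a tamoxifen-inducible Cre recombinase under the osteopontin promoter with a reporter whose red membrane protein gives way to a green one, for good and in all daughter cells, once Cre has acted. In liver, osteopontin is expressed mainly by cells of the bile ducts. The labels do not name the cause of the injury, the age, strain or sex of the animals, the way the cells were sorted, or which samples came from the same animal. In each group, 2 of the libraries used in the tests came from experiment 1, made with a poly(A) kit, and 3 from experiment 2, made with a kit that removes ribosomal RNA. GREEN 3 and GREEN 4 carry the same library code apart from its last part, as do the 2 libraries of a RED sample sequenced in both experiments. Whether they are separate animals or 2 libraries of 1 sample cannot be told. Their titles number them as 2 samples, and they are counted so wherever n = 5 is given for GREEN. The main counts are given with and without them.

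The liver removes the nitrogen of surplus amino acids as urea. Carbamoyl phosphate synthetase and ornithine transcarbamylase work in the mitochondrion, argininosuccinate synthetase, argininosuccinate lyase and arginase in the cytosol, and membrane carriers link the compartments. Aminotransferases and glutamate dehydrogenase feed nitrogen into the cycle, and dedicated routes break down tyrosine, tryptophan, histidine, serine, proline, methionine and lysine. Most of these enzymes are far more abundant in hepatocytes than in other liver cells, and several, among them the urea cycle enzymes, are highest in periportal hepatocytes.

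Libraries held 22442607 to 34216824 estimated counts in experiment 1 and 38061859 to 44177627 in experiment 2. Levels are given as CPM, the usual depth-normalized count, after TMM scaling, which sets libraries level on the bulk of their genes. The TMM factors ran from 1.14 to 1.49 in GREEN, from 0.789 to 1.08 in RED and from 0.624 to 0.907 in CTL samples. The label hepatocyte was checked on 30 hepatocyte marker genes outside the 39, such as Alb and Apoa1. These markers took 8.93% to 16.4% of counts in GREEN, 17.3% to 18.7% in RED and 18.2% to 20.4% in CTL samples, and no group had a marker at 0 in all its samples. The 20 biliary markers summed to 819, 1130, 4070, 9660 and 5260 CPM in GREEN 1 to GREEN 5, against 230 to 586 CPM in RED and 129 to 443 CPM in CTL samples. Markers of endothelial cells summed to 461 to 981 CPM in GREEN, 485 to 2440 CPM in RED and 58.4 to 171 CPM in CTL samples. For stellate cells and matrix the sums were 1000 to 3010 CPM in GREEN, 389 to 2300 CPM in RED and 54.5 to 120 CPM in CTL samples, and for macrophages 225 to 831 CPM in GREEN, 187 to 2100 CPM in RED and 135 to 194 CPM in CTL samples. In CTL samples the biliary genes Cftr and Sctr were at 0 throughout, as was the neutrophil gene Ly6g. In these bulk samples, fewer hepatocytes and less RNA per hepatocyte cannot be told apart.

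Promoters are shown for Kmo and Haao, of the tryptophan route, and for Bhmt and Ahcy, of the methionine cycle, since these genes carried the strongest differences described below. Each sequence is from RefSeq (GRCm38.p6) and runs 5′ to 3′ on the strand of the gene, from 250 bases before to 50 bases after the annotated start. Capitals mark the letters TGTTCT, the core of glucocorticoid receptor sites, found on either strand.
Kmo, chr1:175631943-175632242, + strand: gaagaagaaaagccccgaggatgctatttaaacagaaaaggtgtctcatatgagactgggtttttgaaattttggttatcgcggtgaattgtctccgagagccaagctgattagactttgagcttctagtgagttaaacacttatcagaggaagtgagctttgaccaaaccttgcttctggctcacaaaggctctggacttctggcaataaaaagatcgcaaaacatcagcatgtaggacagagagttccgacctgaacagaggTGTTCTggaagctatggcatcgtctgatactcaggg
Haao, chr17:83846741-83847040, - strand: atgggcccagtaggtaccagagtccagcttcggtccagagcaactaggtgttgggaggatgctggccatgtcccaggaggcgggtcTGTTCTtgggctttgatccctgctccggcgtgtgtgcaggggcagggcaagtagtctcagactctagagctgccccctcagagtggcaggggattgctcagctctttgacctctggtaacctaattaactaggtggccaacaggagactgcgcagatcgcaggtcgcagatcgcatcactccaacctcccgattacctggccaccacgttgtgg
Bhmt, chr13:93637709-93638008, - strand: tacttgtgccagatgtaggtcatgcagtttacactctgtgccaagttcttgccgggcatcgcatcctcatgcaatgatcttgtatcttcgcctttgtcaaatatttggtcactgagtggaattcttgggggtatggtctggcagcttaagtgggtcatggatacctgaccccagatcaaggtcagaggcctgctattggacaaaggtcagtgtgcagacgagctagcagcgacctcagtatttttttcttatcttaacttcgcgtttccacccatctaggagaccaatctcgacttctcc
Ahcy, chr2:155074448-155074747, - strand: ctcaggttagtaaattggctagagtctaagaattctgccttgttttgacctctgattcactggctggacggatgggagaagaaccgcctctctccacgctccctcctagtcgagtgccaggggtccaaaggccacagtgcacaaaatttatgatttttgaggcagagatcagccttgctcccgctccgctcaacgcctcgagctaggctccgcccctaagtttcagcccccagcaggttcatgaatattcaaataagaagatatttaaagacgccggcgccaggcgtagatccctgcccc

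RefSeq promoters were matched for 29 of the 39 genes, with 31 promoters in all. The letters TGTTCT were in 3 of these 31 (Agxt, Haao and Kmo) and in 6233 of all 32851 promoters of the same length. The C/EBP motif TTGCNNAA was in 4 of the 31 (Aass, Hal, Hgd and Prodh2) and in 10.8% of all promoters. The letters TATAAA, the core of the TATA box, were in 5 of the 31 (Ftcd, Got2, Hal, Hgd and Tdo2) and in 13.6% of all. None of the 31 held the HNF4 motif CAAAGTCCA (0.475% of all) or the CRE motif TGACGTCA (1.79%). Both strands were searched for each motif.

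In healthy hepatocytes the 39 genes spanned a wide range of levels. Per kilobase of exon, Ass1 (mean 1560 CPM per kb in CTL samples), Cps1 (1350), Gnmt (1050), Tat (856) and Bhmt (831) were highest, and Nags (23.1), Prodh (8.63) and Sdsl (6.54) lowest. The ranges of the 5 CTL samples of Ass1 (1130 to 1800 CPM per kb) and Cps1 (1270 to 1470) overlapped, so the order of these neighbours is within their spread. The same held for Tat (558 to 1040), Bhmt (682 to 975) and Hpd (405 to 1370). Prodh (4.19 to 12.8) and Sdsl (2.84 to 9.48) overlapped as well, while the highest of the 3, Nags (21.4 to 28.2), stood apart from both.

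Most of the 39 genes were high in the same libraries and low in the same libraries. After the difference between experiments was removed, the median log2 difference of the 39 genes from the CTL mean was -0.34, -0.55, -1.95, -2.28 and -1.12 in GREEN 1 to GREEN 5. It was 0.55, -0.08, -0.33, -0.96 and -0.73 in RED 1 to RED 5, and -0.16, 0.04, 0.27, 0.16 and -0.34 in CTL 1 to CTL 5. GREEN 3 and GREEN 4 were lowest, with all 39 genes below the CTL mean, and RED 1 stood above the healthy samples, with 3 of 39 below it. RED 4 and RED 5 also had all 39 genes below the CTL mean. The summed level of 4 Y-linked genes was 117 CPM in GREEN 3, 126 CPM in GREEN 4, 140 CPM in RED 4 and 156 CPM in RED 5, at most 16.7 CPM in the other GREEN and RED samples, and 146, 198 and 144 CPM in CTL 1, CTL 4 and CTL 5. With that level as a term, 37 of the 39 genes passed as lower in GREEN against CTL samples (edgeR), where 21.2% of all genes were lower and 30.6% higher. The median standard deviation of a gene within a group was 0.85 (log2) in GREEN, 0.60 in RED and 0.34 in CTL samples for the 39 genes, and 0.39, 0.40 and 0.34 for all genes tested.

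**Figure D1:**
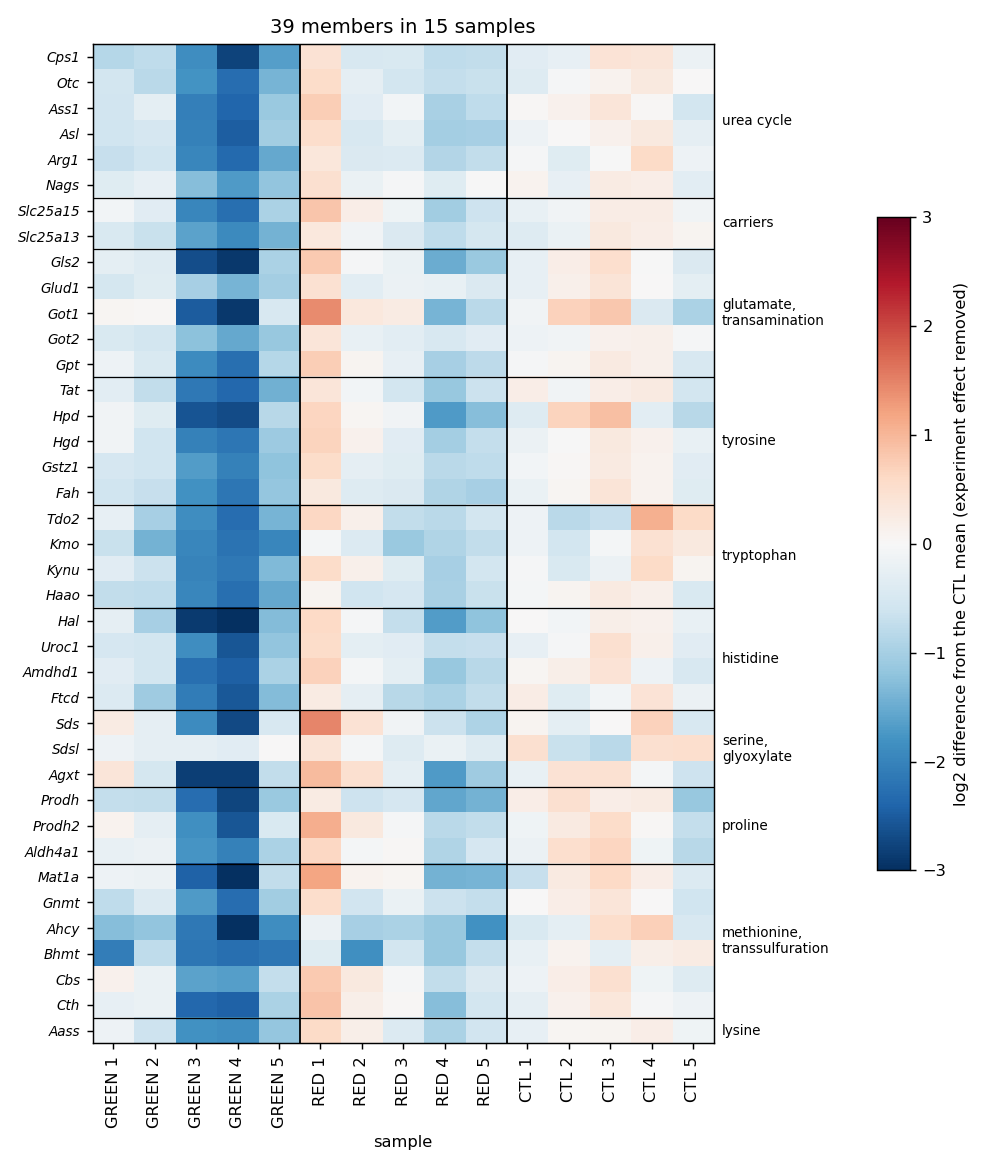
Log2 difference of each of the 39 genes (rows, by pathway) from the CTL mean in the 15 samples (columns), after removal of the experiment effect, with colours ending at a difference of 3. The GREEN 3 and GREEN 4 columns are the darkest blue (medians -1.95 and -2.28), RED 1 is mostly above the CTL mean (median 0.55), and Sdsl differs least between groups. Levels are TMM scaled, and set against hepatocyte markers the blue of the GREEN columns is largely lost (group median 0.08 against CTL).

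The first comparison set hepatocytes of injured liver labelled as DR-derived (GREEN) against healthy native ones (CTL). Of the 39 genes, 23 fell and none rose (edgeR quasi-likelihood test, adjusted p threshold 0.05). All 39 log2 fold changes were below 0, from -1.82 to -0.32, with a median of -1.09. Over all 16387 genes tested, 18.6% were lower and 29.5% higher, with a median of 0.11. In 16 of 39 genes every GREEN sample was below every CTL sample of the same experiment, against 13.6% of all genes, and without GREEN 3 and GREEN 4 this held for 16 of 39 and 16.1% of all. The 30 hepatocyte markers outside the list behaved alike, with 23 lower, none higher and a median of -1.30. When libraries were scaled to these 30 markers, the median of the 39 genes was 0.08, none was lower (edgeR, none at an unadjusted p under 0.05 either) and 1, Sdsl, was higher, where 0.610% of all genes were lower and 79.7% higher with a median of 1.47. With library totals 5 were lower, namely Ahcy, Bhmt, Kmo, Haao and Cps1, where 2.85% of all genes were and the all-gene median was 0.83.

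Urea cycle enzymes fell in 5 of 6 cases. Cps1, the carbamoyl phosphate synthetase that commits ammonia to the cycle, had 5170, 5460, 2570, 797 and 1750 CPM in GREEN 1 to GREEN 5. RED 1 to RED 5 had 7400, 6650, 6710, 5470 and 3280 CPM, and CTL 1 to CTL 5 had 7310, 7880, 7210, 7030 and 8170 CPM. All GREEN samples were below all CTL samples (log2 fold change -1.42, standard error 0.42, edgeR adjusted p = 0.0136), with GREEN 4 far below the rest. Otc, which joins carbamoyl phosphate to ornithine, had 297, 247, 125, 108 and 201 CPM in GREEN 1 to GREEN 5, against 331, 423, 568, 645 and 439 CPM in CTL 1 to CTL 5. Its RED samples had 769, 359, 297, 266 and 330 CPM. GREEN and CTL samples did not overlap (log2 -1.24, standard error 0.33, adjusted p = 0.00788), and RED samples overlapped with both.

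Arg1, the arginase that releases urea, had 779, 834, 328, 242 and 415 CPM in GREEN 1 to GREEN 5. The RED 1 to RED 5 values were 1530, 943, 947, 689 and 725 CPM, and the CTL 1 to CTL 5 values 1230, 989, 1200, 1790 and 1130 CPM. Every GREEN sample was below every CTL sample (log2 -1.29, standard error 0.36, adjusted p = 0.00953). Asl, the argininosuccinate lyase, had 362, 391, 134, 79 and 213 CPM in GREEN, 633, 397, 453, 270 and 219 CPM in RED and 496, 554, 481, 542 and 455 CPM in CTL samples 1 to 5. Again GREEN and CTL did not overlap (log2 -1.14, standard error 0.39, adjusted p = 0.0266), and the CTL samples were tightly grouped.

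Ass1, the argininosuccinate synthetase and the most abundant member per kilobase, was the urea cycle enzyme that missed the threshold. It had 2690, 3260, 974, 634 and 1520 CPM in GREEN, 5530, 3160, 3780, 2060 and 1950 CPM in RED and 4120, 4350, 4270, 3380 and 2740 CPM in CTL samples 1 to 5 (log2 -1.09, standard error 0.44, adjusted p = 0.0550 for GREEN against CTL). GREEN 2 was above CTL 5, so the groups overlapped. Nags makes N-acetylglutamate, the activator that Cps1 requires. Its levels were 58, 63.5, 30.8, 16.3 and 23.3 CPM in GREEN, 73.2, 65.4, 73.6, 58.5 and 52.4 CPM in RED and 80, 63.3, 62.8, 60.9 and 60.6 CPM in CTL samples 1 to 5. It fell in GREEN (log2 -0.86, standard error 0.27, adjusted p = 0.0163) although GREEN 1 and GREEN 2 lay in or near the range of the CTL samples. The low values were those of GREEN 3, GREEN 4 and GREEN 5.

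**Figure D2:**
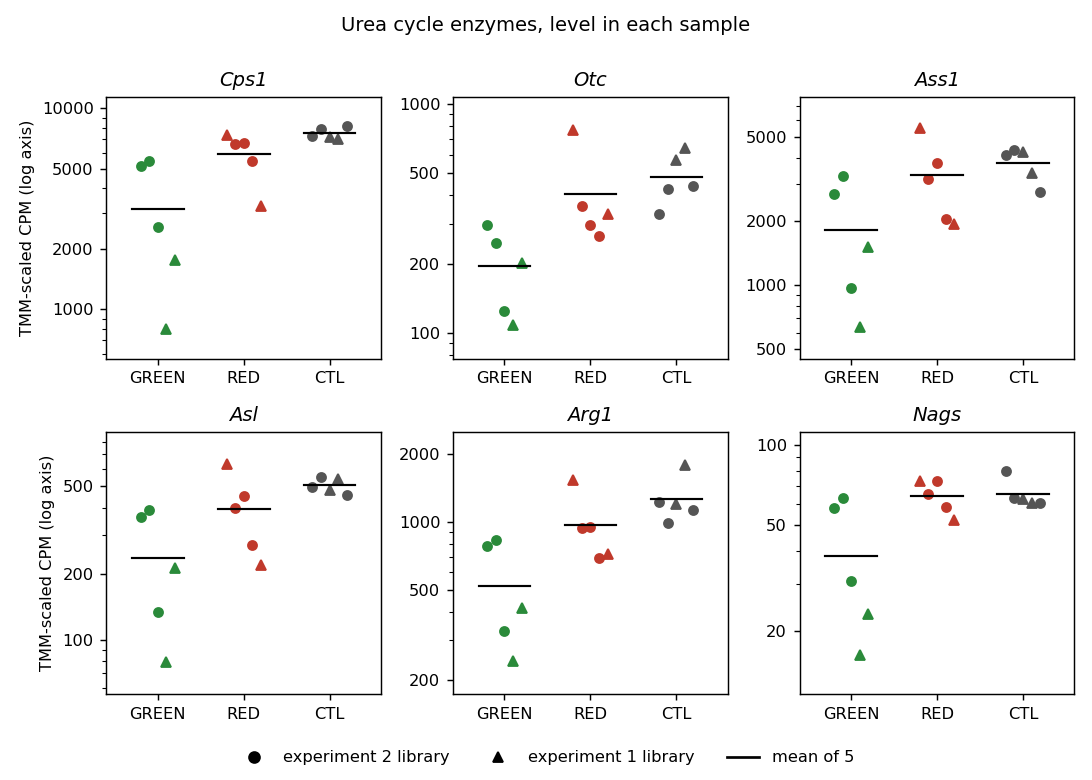
TMM-scaled CPM (log axis) of the 6 urea cycle enzymes in each GREEN, RED and CTL sample, with circles for experiment 2, triangles for experiment 1 and a bar for the mean of 5. For Cps1, Otc, Asl and Arg1 all GREEN points lie below all CTL points, and within GREEN the samples 3 to 5 lie below samples 1 and 2.

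Of the mitochondrial carriers, Slc25a13, the aspartate and glutamate carrier citrin, fell and Slc25a15, which exchanges ornithine and citrulline, did not pass. Slc25a13 had 191, 164, 85.2, 59.8 and 83.7 CPM in GREEN, 277, 243, 193, 155 and 155 CPM in RED and 198, 228, 275, 258 and 277 CPM in CTL samples 1 to 5. GREEN and CTL samples did not overlap, by a narrow margin between GREEN 1 and CTL 1 (log2 -1.12, standard error 0.29, adjusted p = 0.00640). Slc25a15 averaged 292 ± 196 CPM in GREEN and 516 ± 17 CPM in CTL samples (SD, n = 5 each, log2 -0.89, edgeR adjusted p = 0.101). The spread of GREEN samples was far wider than that of CTL samples.

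Among the genes of glutamate, glutamine and transamination, 2 of 5 fell. Got2, the mitochondrial aspartate aminotransferase, had 402, 381, 237, 208 and 272 CPM in GREEN, 773, 475, 441, 396 and 474 CPM in RED and 502, 515, 656, 664 and 544 CPM in CTL samples 1 to 5. No GREEN sample reached the CTL range (log2 -0.92, standard error 0.23, adjusted p = 0.00489). Glud1, glutamate dehydrogenase, averaged 764 ± 312 CPM in GREEN and 1300 ± 213 CPM in CTL samples (SD, n = 5 each, log2 -0.83, edgeR adjusted p = 0.0149). Gls2, the liver glutaminase (log2 -1.09), Gpt, alanine aminotransferase (-0.92), and Got1, the cytosolic aspartate aminotransferase (-0.82), did not pass, with edgeR adjusted p = 0.107, 0.0770 and 0.311.

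In tyrosine breakdown 3 of 5 genes fell. Fah, the last enzyme of the route, had 372, 345, 158, 140 and 285 CPM in GREEN, 771, 430, 412, 300 and 318 CPM in RED and 489, 583, 823, 683 and 435 CPM in CTL samples 1 to 5 (log2 -1.17, standard error 0.33, adjusted p = 0.00961). Gstz1, the maleylacetoacetate isomerase, had 385, 362, 171, 164 and 290 CPM in GREEN, 977, 454, 426, 311 and 395 CPM in RED and 515, 564, 801, 723 and 433 CPM in CTL samples 1 to 5 (log2 -1.09, standard error 0.33, adjusted p = 0.0139). For both genes all GREEN samples were below all CTL samples, and RED 1 lay near or above the highest CTL samples. Tat, tyrosine aminotransferase, averaged 873 ± 500 CPM in GREEN and 2060 ± 478 CPM in CTL samples (SD, n = 5 each, log2 -1.22, edgeR adjusted p = 0.0245). Hgd and Hpd, the dioxygenases in the middle of the route, had log2 fold changes of -0.99 and -1.09 with edgeR adjusted p = 0.0579 and 0.145. Hpd varied widely in the healthy samples too, between 862 and 2910 CPM.

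All 4 genes of the tryptophan route fell. Kmo, kynurenine 3-monooxygenase, had the smallest p of the 39 genes in any comparison. Its levels were 203, 120, 82.2, 76.1 and 91.1 CPM in GREEN, 342, 241, 149, 170 and 213 CPM in RED and 289, 219, 339, 488 and 395 CPM in CTL samples 1 to 5 (log2 -1.57, standard error 0.32, adjusted p = 0.00136). GREEN 1 was close to CTL 2 and the others were well below the CTL samples. Haao, which makes the precursor of quinolinate, had 208, 205, 89.6, 79 and 130 CPM in GREEN, 401, 228, 246, 178 and 240 CPM in RED and 334, 368, 453, 422 and 253 CPM in CTL samples 1 to 5 (log2 -1.34, standard error 0.30, adjusted p = 0.00288). All GREEN samples were below all CTL samples. Tdo2, which opens the indole ring of tryptophan, averaged 461 ± 231 CPM in GREEN and 1250 ± 821 CPM in CTL samples (SD, n = 5 each, log2 -1.35, edgeR adjusted p = 0.0302). Kynu, kynureninase, averaged 100 ± 56 CPM in GREEN and 221 ± 56.5 CPM in CTL samples (SD, n = 5 each, log2 -1.15, edgeR adjusted p = 0.0224).

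In the histidine route 3 of 4 genes fell. Ftcd, the last enzyme, which passes the formimino group to tetrahydrofolate, had 330, 210, 104, 80.6 and 191 CPM in GREEN, 565, 364, 246, 227 and 284 CPM in RED and 513, 341, 445, 633 and 389 CPM in CTL samples 1 to 5. GREEN 1 was just under CTL 2 and there was no overlap (log2 -1.32, standard error 0.37, adjusted p = 0.00964). Uroc1, urocanase, had a log2 fold change of -1.15 (edgeR adjusted p = 0.0230), and Amdhd1, the imidazolonepropionase, one of -1.09 that was at the threshold (adjusted p = 0.0499). Hal, histidine ammonia-lyase, was as far apart (log2 -1.32) and just missed it (edgeR adjusted p = 0.0502). Hal averaged 297 ± 235 CPM in GREEN and 716 ± 53.5 CPM in CTL samples (SD, n = 5 each).

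In the methionine group 3 of 6 genes fell. Bhmt, which remethylates homocysteine with betaine, had 1080, 2700, 1020, 1030 and 1110 CPM in GREEN, 3850, 1290, 3140, 2090 and 3010 CPM in RED and 3930, 4920, 4040, 5610 and 5430 CPM in CTL samples 1 to 5. All GREEN samples were below all CTL samples, and 4 of the 5 GREEN samples were nearly alike while GREEN 2 was higher (log2 -1.78, standard error 0.37, adjusted p = 0.00164). Ahcy, which splits S-adenosylhomocysteine, had 399, 427, 220, 106 and 296 CPM in GREEN, 953, 482, 503, 437 and 307 CPM in RED and 698, 788, 1550, 1780 and 691 CPM in CTL samples 1 to 5. It had the largest fold change of the 39 genes (log2 -1.82, standard error 0.43, adjusted p = 0.00351). Gnmt, glycine N-methyltransferase, fell by 1.12 on the log2 scale (edgeR adjusted p = 0.0192). Mat1a, which makes S-adenosylmethionine (log2 -0.92), and Cbs (-0.67) and Cth (-0.95), the enzymes of transsulfuration, did not pass, with edgeR adjusted p = 0.240, 0.162 and 0.110.

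In proline breakdown 1 of 3 genes fell. Prodh, proline dehydrogenase, averaged 26.5 ± 16.2 CPM in GREEN and 67.3 ± 25.1 CPM in CTL samples (SD, n = 5 each, log2 -1.40, edgeR adjusted p = 0.0207). Prodh2, which oxidises hydroxyproline (log2 -0.73, edgeR adjusted p = 0.235), and Aldh4a1 (-0.93, adjusted p = 0.0774) did not pass. None of the 3 genes of serine and glyoxylate passed. Sds, serine dehydratase, had a log2 fold change of -0.67 (edgeR adjusted p = 0.332) and Agxt, which removes glyoxylate, one of -0.86 (adjusted p = 0.269). Aass, which starts lysine breakdown, fell by 0.98 on the log2 scale (edgeR adjusted p = 0.0333).

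Sdsl, a homologue of serine dehydratase, stood apart from the other members. It had 8.89, 8.21, 8.21, 5.89 and 7.47 CPM in GREEN, 9.76, 9.48, 7.57, 8.65 and 5.68 CPM in RED and 13.9, 6.22, 4.25, 10.4 and 14.2 CPM in CTL samples 1 to 5. The groups overlapped, and GREEN 3 and GREEN 4 were not set apart from the other samples (log2 -0.32, standard error 0.27, edgeR adjusted p = 0.347). Against the 30 hepatocyte markers it was higher in GREEN than in CTL samples (log2 1.13, edgeR adjusted p = 0.00467), as were 79.7% of all genes, whose median was 1.47.

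**Figure D3:**
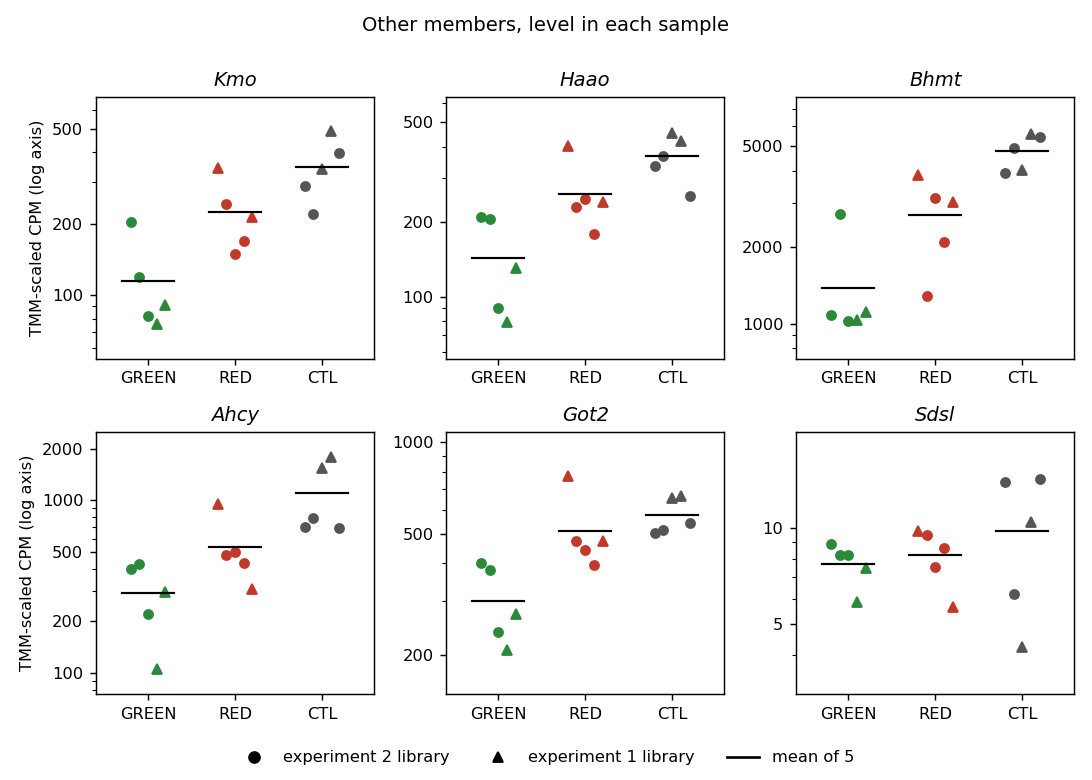
TMM-scaled CPM (log axis) of Kmo, Haao, Bhmt, Ahcy, Got2 and Sdsl in each GREEN, RED and CTL sample, with circles for experiment 2, triangles for experiment 1 and a bar for the mean of 5. For the first 5 genes all GREEN points lie below all CTL points, all RED points of Bhmt lie below all CTL points, and for Sdsl the groups overlap.

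The share of all counts taken by the 39 genes was 3.11%, 3.20%, 1.43%, 1.01% and 2.09% in GREEN 1 to GREEN 5. RED 1 to RED 5 had 4.00%, 3.31%, 3.51%, 2.13% and 2.04%, and CTL 1 to CTL 5 had 3.12%, 3.76%, 3.43%, 2.65% and 2.79%. Every GREEN sample had a smaller share of hepatocyte markers than any RED or CTL sample. GREEN 1 and GREEN 2 had 16.4% and 15.7% of counts. GREEN 3, GREEN 4 and GREEN 5 were lowest (11.2%, 8.93% and 10.7%), and these 3 had the highest biliary sums. RED 4 and RED 5 had a low share of the 39 genes beside hepatocyte markers at 17.3% and 17.9%. Per 100 counts of the hepatocyte markers, the 39 genes had 11.3 to 20.4 counts in GREEN, 11.4 to 21.4 in RED and 13.2 to 20.7 in CTL samples, so the groups overlapped. The lowest were GREEN 4 (11.3), RED 5 (11.4), RED 4 (12.3) and GREEN 3 (12.8). Of the 20 biliary markers, 18 were higher in GREEN than in CTL samples, with a median log2 fold change of 7.19, and of the 15 endothelial and the 15 stellate and matrix markers all were. The part of these other cells or transcripts in the result was not tested.

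**Figure D4:**
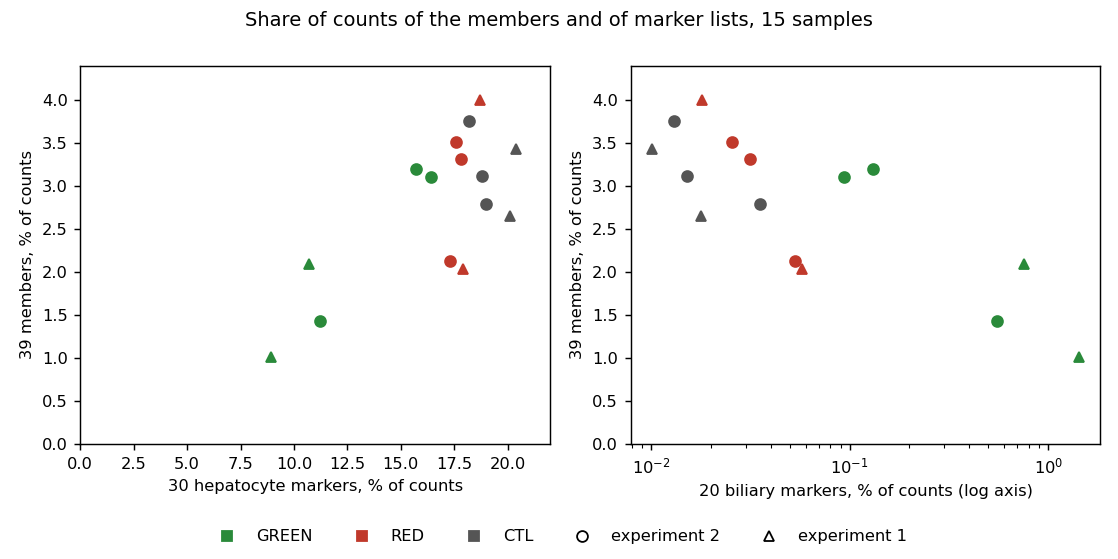
Share of counts of the 39 genes (vertical axis, %) against that of the 30 hepatocyte markers (left, %) and of the 20 biliary markers (right, %, log axis) in the 15 samples, coloured by group, with circles for experiment 2 and triangles for experiment 1. GREEN 3, GREEN 4 and GREEN 5 are low on the left axis (8.93% to 11.2%) and high on the right one, and RED 4 and RED 5 have few counts of the 39 genes at a hepatocyte share close to that of the other RED samples.

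The count of 23 genes rested in part on single libraries. It was 15 without GREEN 5 (14.0% of all genes lower in the same fit), 16 without GREEN 3 (14.9%) and 17 without GREEN 4 (14.6%). Without both GREEN 3 and GREEN 4 it was 10 (14.3% of all). These were Otc, Arg1, Slc25a13, Got2, Fah, Kmo, Haao, Ftcd, Ahcy and Bhmt. Without GREEN 3, GREEN 4 and GREEN 5 it was 0 (edgeR, 5 at an unadjusted p under 0.05), when the median was -0.41 and 2.73% of all genes were lower. Experiment 2 alone called 1 of the 39 genes lower, Ahcy (log2 -1.06, edgeR adjusted p = 0.0206), where 4.85% of all genes were, with a median of -0.68. Experiment 1 alone called 31, where 18.3% of all genes were, with a median of -1.72. These fits used all libraries of their experiment and held different GREEN samples. They were GREEN 4 and GREEN 5 in experiment 1, and GREEN 1, GREEN 2 and GREEN 3 in experiment 2.

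**Figure D5:**
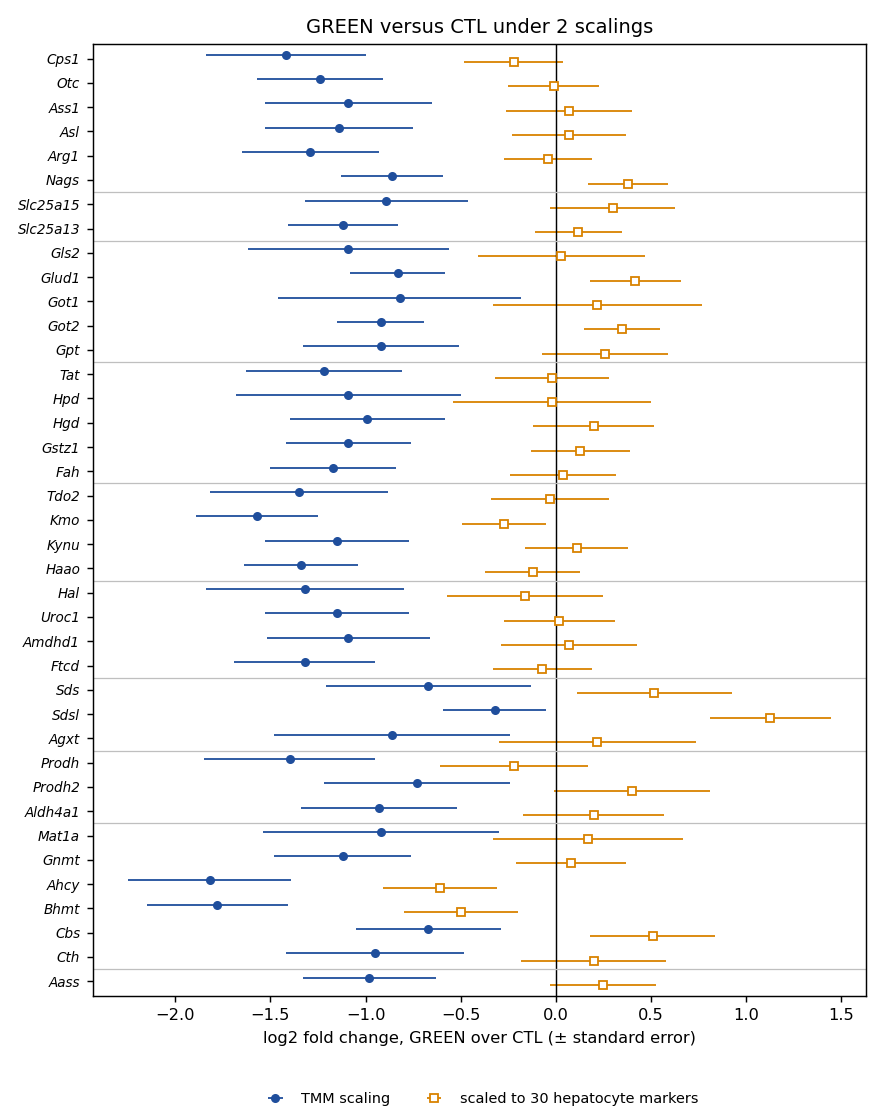
Log2 fold change of GREEN over CTL with its standard error for the 39 genes, under TMM scaling (filled circles) and scaled to 30 hepatocyte markers (open squares). Under TMM all 39 values lie below 0 (median -1.09), and against hepatocyte markers they lie around 0 (median 0.08), with Ahcy and Bhmt lowest and Sdsl highest.

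The second comparison set native hepatocytes of injured liver (RED) against native hepatocytes from healthy livers (CTL). None of the 39 genes passed the threshold in edgeR, with 2 at an unadjusted p under 0.05. DESeq2 called 2 lower, where it called 5.56% of all genes lower, and limma-voom called none. In edgeR the median log2 fold change was -0.23, 35 of 39 were below 0, and the background was 1.99% of all genes lower and 14.2% higher, with a median of 0.05. Of the 30 hepatocyte markers none passed, with a median of -0.40. Against those markers the median of the 39 genes was 0.09, with library totals it was 0.01, and the all-gene medians became 0.44 and 0.33.

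The genes with an unadjusted p under 0.05 in edgeR were Ahcy and Bhmt, both of the methionine cycle. By chance alone that cut passes about as many of 39 genes, and neither passed after adjustment in edgeR. Ahcy averaged 536 ± 245 CPM in RED and 1100 ± 521 CPM in CTL samples (SD, n = 5 each, log2 -0.99, standard error 0.41, edgeR adjusted p = 0.132). Bhmt averaged 2680 ± 997 CPM in RED and 4790 ± 775 CPM in CTL samples (SD, n = 5 each, log2 -0.84, standard error 0.36, edgeR adjusted p = 0.151). As the values above show, each RED sample was below each CTL sample of the same experiment for both genes. Haao was the third gene of which this held (log2 -0.50, edgeR adjusted p = 0.316), which makes 3 of 39, against 3.75% of all genes. In DESeq2 Ahcy (log2 -1.05, adjusted p = 0.0450) and Bhmt (log2 -0.89, adjusted p = 0.0398) passed. Ahcy also passed in edgeR with the library code number as a replicate block (log2 -1.70, adjusted p = 0.0428), where 2.18% of all genes were lower. In that block the CTL samples of experiment 2 stood alone. Its comparison of RED with CTL therefore rested on the CTL samples of experiment 1 only.

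The urea cycle enzymes had log2 fold changes between -0.39 (Arg1) and -0.01 (Nags) in RED against CTL samples. Cps1 had -0.36 with a standard error of 0.41 (edgeR adjusted p = 0.639), and Ass1 -0.18 with one of 0.43 (adjusted p = 0.843). In the tryptophan route Kmo had -0.64 (edgeR adjusted p = 0.210), and in the proline route Prodh had -0.72 (adjusted p = 0.344). In the tyrosine and histidine routes the smallest p belonged to Fah (log2 -0.43, adjusted p = 0.449) and Ftcd (log2 -0.47, adjusted p = 0.468). Sds (log2 0.25), Got1 (0.12), Prodh2 (0.08) and Cbs (0.03) were the members above 0. RED 1 stood above the other RED samples in most members, and without it the median was -0.66 and all 39 were below 0. In that fit 1 gene, Ahcy, was called (log2 -1.39, edgeR adjusted p = 0.0479), where 4.9% of all genes were lower.

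The third comparison set GREEN against RED, both from injured liver. A single gene, Got2, fell (log2 -0.75, standard error 0.23, edgeR adjusted p = 0.0465), where 3.22% of all genes were lower and 9.68% higher. All 39 log2 fold changes were below 0, from -1.05 (Cps1) to -0.10 (Sdsl), and 17 had an unadjusted p under 0.05. Their median was -0.85, beside -0.02 for all genes and -0.90 for the 30 hepatocyte markers, of which 4 were lower. Against hepatocyte markers the median was 0.00, none was lower (edgeR, none at an unadjusted p under 0.05 either) and Sdsl was higher (log2 0.92, edgeR adjusted p = 0.0239), where 0.00610% of all genes were lower and 58.0% higher. Each pair of the 3 comparisons shares a group of samples, so their values are not independent.

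Several genes came close to the threshold. Nags had a log2 fold change of -0.85 (standard error 0.27, edgeR adjusted p = 0.0511), Kmo -0.93 (0.31, adjusted p = 0.0640), Slc25a13 -0.85 (0.29, adjusted p = 0.0678) and Otc -0.97 (0.33, adjusted p = 0.0681). Cps1 averaged 3150 ± 2080 CPM in GREEN and 5900 ± 1620 CPM in RED samples (SD, n = 5 each, log2 -1.05, edgeR adjusted p = 0.105). Cps1, Glud1 and Ahcy were the 3 genes of which every GREEN sample was below every RED sample of the same experiment, against 4.34% of all genes (3 of 39 and 6.39% of all without GREEN 3 and GREEN 4). Of the 20 biliary markers 15 were higher in GREEN than in RED samples, with a median log2 fold change of 5.07, and the part of this in the result was not tested.

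With the code numbers of experiment 2 as a replicate block, which match GREEN 1 to RED 2, GREEN 2 to RED 3 and GREEN 3 to RED 4, 8 genes passed instead of 1 (5.90% of all genes lower). They were Nags (log2 -0.93, edgeR adjusted p = 0.0296), Slc25a13, Kmo, Got2, Kynu, Haao, Aass and Otc (log2 -1.06, adjusted p = 0.0477). With CTL samples left out and 5 code pairs as the block none passed in edgeR, 25 having an unadjusted p under 0.05 (0.462% of all genes lower). In that fit RED 4 entered with both its libraries, matched to GREEN 3 and GREEN 4, and RED 1 was left out. GREEN 5 was matched to RED 5 by code number alone. The 5 pairs were therefore not independent matched samples. DESeq2 called 11 genes lower (9.54% of all genes) and limma-voom 8 (5.02%). The call of Got2 was lost without any single CTL sample, any single RED sample, GREEN 3, GREEN 4 or GREEN 5, while 13 genes passed without GREEN 1 (8.09% of all genes lower) and 8 without GREEN 2 (6.02%). Without GREEN 3 and GREEN 4 none passed (edgeR, none at an unadjusted p under 0.05), no gene of all those tested was lower, and the median was -0.37. Experiment 2 alone called none (edgeR, none at an unadjusted p under 0.05) with a median of -0.38, and experiment 1 alone 30 (14.5% of all genes lower) with a median of -1.64. Here too the fits held different GREEN samples.

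The wider network was followed on 63 other genes of amino acid metabolism, of which 62 were tested, and 11 regulators. In GREEN against CTL samples 41 of the 62 fell and 3 rose, with a median of -0.89. Of all genes 18.6% were lower and 29.5% higher. Without GREEN 3 and GREEN 4 the counts were 23 and 2, where 14.3% of all genes were lower and 19.1% higher. The list had 9 lower and none higher in GREEN against RED (median -0.70), where 3.22% of all genes were lower and 9.68% higher. Without GREEN 3 and GREEN 4 none of the list and none of all genes was lower there (edgeR, 8 of the list at an unadjusted p under 0.05). In RED against CTL samples 2 were lower and 1 higher (median -0.22), where 1.99% of all genes were lower and 14.2% higher. Arg2, the mitochondrial arginase, rose in GREEN against CTL samples from a very low level (log2 3.52, adjusted p = 0.00209), with 1.96 ± 1.79 CPM in GREEN and 0.17 ± 0.133 CPM in CTL samples (SD, n = 5 each). Pycr1, of proline synthesis, rose as well (log2 0.92, edgeR adjusted p = 0.0451).

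Ido2, an enzyme of tryptophan oxidation, fell in all 3 comparisons. It averaged 33.4 ± 14.6 CPM in GREEN, 65.5 ± 9.24 CPM in RED and 128 ± 23.5 CPM in CTL samples (SD, n = 5 each). The log2 fold change was -1.98 for GREEN against CTL, -1.02 for GREEN against RED and -0.96 for RED against CTL (edgeR adjusted p = 6.37e-05, 0.0202 and 0.0140). Slc43a1, a transporter of large neutral amino acids, fell in RED (log2 -0.95, edgeR adjusted p = 0.0430) and in GREEN against CTL samples (-1.76, adjusted p = 0.000500). Acadsb, an acyl-CoA dehydrogenase of isoleucine breakdown, fell in GREEN against RED (log2 -0.64, adjusted p = 0.0221) and against CTL samples (-0.99, adjusted p = 0.000309). Aadat, which transaminates kynurenine and aminoadipate (log2 -1.76), and Dmgdh, dimethylglycine dehydrogenase (-1.61), fell in GREEN against CTL samples, with edgeR adjusted p = 0.000806 and 0.00124. Gcsh (log2 -0.67), of glycine cleavage, Pcbd1 (-0.79), Bhmt2 (-1.05) and Dld (-0.54) fell in GREEN against RED, with edgeR adjusted p = 0.0323, 0.0329, 0.0347 and 0.0358.

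Of the 11 regulators, 7 fell in GREEN against CTL samples, where 18.6% of all genes were lower. Without GREEN 3 and GREEN 4 the count was 5, where 14.3% of all genes were lower. None passed in RED against CTL or in GREEN against RED (1.99% and 3.22% of all genes lower). Hnf4a, a nuclear receptor that maintains hepatocyte genes, averaged 363 ± 152 CPM in GREEN and 692 ± 83.8 CPM in CTL samples (SD, n = 5 each, edgeR adjusted p = 0.0109). Cebpa, a C/EBP factor of metabolic genes, had a log2 fold change of -1.19 (edgeR adjusted p = 0.0100). The glucocorticoid receptor gene Nr3c1 (log2 -0.58, edgeR adjusted p = 0.00178) and Foxo1 (-0.48, adjusted p = 0.00549) fell least. Gcgr, the glucagon receptor (log2 -1.04), and Creb3l3 (-1.08), a liver factor bound to the endoplasmic reticulum membrane, fell with edgeR adjusted p = 0.0159 and 0.0297. Atf4 (log2 0.07) and Ppargc1a (0.09) did not pass, with edgeR adjusted p = 0.843 and 0.877.

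Within the groups the 39 genes were also set against the level of the Y-linked genes, a relation looked at after the values had been seen. In the fit of group, experiment and summed Y-linked level, 16 of 39 genes were lower where that level was higher (edgeR adjusted p threshold 0.05), against 3.58% of all genes. Scaled to the 30 hepatocyte markers, 24 of 39 were, against 1.70% of all genes. Got1 fell by 0.39 on the log2 scale per doubling of the Y-linked level (edgeR adjusted p = 0.00300), and Hpd fell by 0.36 (adjusted p = 0.00267). Mat1a fell by 0.35, Agxt by 0.34 and Gls2 by 0.30 (edgeR adjusted p = 0.0153, 0.0306 and 0.0150). As the sums given above show, GREEN and RED samples had either a high or a low Y-linked level, with none between. The slopes per doubling therefore mainly set high against low samples and do not show a graded relation. Leaving out each library in turn gave 3 to 22 genes with TMM and 18 to 25 with hepatocyte marker scaling.

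Got1 had 47.9 and 34 CPM in GREEN 3 and GREEN 4, whose Y-linked level was high, and 281, 276 and 182 CPM in GREEN 1, GREEN 2 and GREEN 5. It had 102 and 146 CPM in RED 4 and RED 5, with a high Y-linked level, and 677, 337 and 318 CPM in RED 1, RED 2 and RED 3. In CTL 1, CTL 4 and CTL 5, again with a high level, it had 250, 187 and 139 CPM, and in CTL 2 and CTL 3 it had 436 and 442 CPM. GREEN 3 and GREEN 4 had high biliary sums as well, while GREEN 5 had a high biliary sum (5260 CPM) and a low Y-linked level. Without GREEN 3 and GREEN 4, 2 of 39 genes were lower with a higher Y-linked level under TMM scaling (0.943% of all genes) and 19 of 39 with hepatocyte marker scaling (2.10% of all genes).

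Levels of these genes differed between the library kits. CTL 5, RED 2, RED 3 and RED 4 had a library of each kit, and with sample as a block 28 of 39 genes were lower and 1, Glud1, higher in experiment 2 than in experiment 1 (edgeR). Of the 14625 genes tested there, 27.0% were lower and 28.7% higher. The median of the 39 genes was -0.34, beside 0.03 for all genes. Tdo2 differed most, with 839 ± 429 CPM in experiment 2 and 1550 ± 847 CPM in experiment 1 (SD, n = 4 each, log2 -0.87, edgeR adjusted p = 1.66e-06). Glud1 had 1100 ± 40.7 CPM in experiment 2 and 946 ± 62.4 CPM in experiment 1 (SD, n = 4 each, log2 0.22, edgeR adjusted p = 0.00744). Group comparisons carried the experiment as a term and had the same number of libraries of each kit in each group.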

How the data were processed

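Gene levels were measured by RNA sequencing of 19 libraries from 15 samples by title, each library made from 150 ng of RNA. The authors deposited estimated counts per gene, not normalized and not whole; per the submitters' processing notes they used kallisto 0.43.1 and GRCm38. The sources used here do not state how transcripts were summed to genes. Symbols were found for 34845 of 35274 identifiers (98.8%) in the GENCODE annotation of GRCm38. Counts were rounded. Each sample entered with 1 library, that of experiment 2 where it had both. The estimated counts were filtered with filterByExpr, scaled by TMM and tested with edgeR 4.0.16 (R 4.3.3) with group and experiment as terms and 11 residual degrees of freedom, with Benjamini-Hochberg adjustment over all 16387 genes. DESeq2 1.42.0, limma 3.58.1 (voom), other scalings, filters, library choices, replicate blocks and left-out samples were the alternatives, and scripts were tested on simulated data.

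The members and gene lists were chosen with earlier results of these data known. Named were all called members, the 6 urea cycle enzymes and the smallest p of each pathway; values per sample are given for the latter 6 and the 12 smallest p, and other members were named after their values were seen. From the list of other genes the 6 with the smallest p in each comparison were named, with the called regulators, apart from results that are not reported here; Pycr1 and the uncalled regulators were added after their values were seen. P-values measure the spread between samples whose animals are not stated.

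Library code numbers of experiment 2 match GREEN 1 to RED 2, GREEN 2 to RED 3 and GREEN 3 to RED 4, and were taken to pair samples in the replicate block. Deviations of these pairs from group means correlated across genes at 0.58, 0.40 and 0.78. GREEN 5 and RED 5 share a code number too, but had -0.22. Samples of healthy and injured liver that share a title number had -0.20 to 0.42. That range reaches the lowest code pair, so the correlation alone cannot show that code numbers pair samples.

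Reads of near-identical copies are split by pseudo-alignment, so members with a close paralog or processed copies, such as Bhmt with Bhmt2, are less certain. The spans of 14 members overlap another annotated gene, 12 on the opposite strand.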

Additional observations from a re-analysis of the deposited data

Results flagged for a closer look

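In each group of 5 samples the highest and the lowest value of each of the 39 genes was compared with its nearest neighbour, on log2 CPM with the experiment effect removed. Of 117 such groups, 3 had a sample whose gap to the nearest other exceeded 0.71 of the whole range, the 95% critical value of Dixon's test, where chance alone gives about 5%. Bhmt was highest in GREEN 2 at 11.44, with the other GREEN samples at 9.94 to 10.12. Cps1 was highest in RED 1 at 13.31, with the other RED samples at 12.11 to 12.41. This flag rests on the fitted experiment effect. Before its removal RED 1 had 7400 CPM, beside 6650 and 6710 CPM in RED 2 and RED 3. Between the kits, within the samples that had both, Cps1 differed by a log2 of only 0.13. Prodh was lowest in CTL 5 at 4.86, with the other CTL samples at 6.18 to 6.46. No explanation was tested for these samples.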

How the results depend on the processing

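In GREEN against CTL the count of 23 lower genes became 5 with library totals, 1 in experiment 2 alone and 37 with the Y-linked level as a term. Leaving out single samples gave 15 (without GREEN 5, 14.0% of all genes lower) to 30 (without GREEN 1, 19.9%). In alternatives chosen after seeing the data it was 10 without GREEN 3 and GREEN 4, 0 without GREEN 3, GREEN 4 and GREEN 5, and 1 (Ahcy) with hepatocyte marker scaling and the replicate block together, which had 1 higher. Hepatocyte marker scaling alone gave 0 lower and 1 higher, and turned these log2 fold changes positive: Ass1 0.07, Asl 0.07, Nags 0.38, Slc25a15 0.30, Slc25a13 0.12, Gls2 0.03, Glud1 0.42, Got1 0.22, Got2 0.35, Gpt 0.26, Fah 0.04, Hgd 0.20, Gstz1 0.13, Kynu 0.11, Uroc1 0.02, Amdhd1 0.07, Sds 0.52, Sdsl 1.13, Agxt 0.22, Prodh2 0.40, Aldh4a1 0.20, Cbs 0.51, Cth 0.20, Mat1a 0.17, Gnmt 0.08 and Aass 0.25. Sdsl was 0.43 with library totals. In GREEN against RED the single lower gene became 0 with library totals, hepatocyte marker scaling (1 higher, also with the replicate block, then 0 lower), no filter, experiment 2 alone, CTL left out (also with 5 code pairs as a replicate block), and without GREEN 3 and GREEN 4 or those and GREEN 5. It became 11 with DESeq2, 8 with limma-voom and 30 in experiment 1 alone. With the experiment 1 library of samples with both it was 19 (11.2% of all genes lower). The Y-linked term gave 15 (7.91%), and the replicate block 2 by title number (2.53%) and 8 by code number. Without single samples it was 0 to 13. Values that turned positive were Got2 0.17, Nags 0.02 and Sdsl 0.92 with hepatocyte marker scaling, and Sdsl 0.36 with library totals and -0.18 to 0.02 without single samples, 0.02 being without RED 1. In RED against CTL the count of 0 became 2 with DESeq2 and with the Y-linked term, 1 with the code number as a replicate block, 0 to 1 without single samples, 1 without GREEN 3 and GREEN 4 and 3 (Ahcy, Haao and Kmo) without GREEN 5 as well, and Cps1 became 0.01 with the experiment 1 library. Of all genes in RED against CTL, 5.56% were lower with DESeq2, 3.41% with the Y-linked term and 2.18% with the code number. Without GREEN 3 and GREEN 4 the share was 4.48%, and without GREEN 5 as well 5.98%. The replicate block left the GREEN against CTL count at 21 by code and 32 by title number, where 23 passed without it. Of all genes 16.8% were lower with the block by code and 18.1% with that by title number. With the block by code, comparisons with CTL rested on the CTL samples of experiment 1 only. Of the kit difference, 1 higher gene became 9 with library totals and 1 to 2 without single samples. The share of all genes higher was not counted in those fits. The cause of these changes was not tested. With 11 residual degrees of freedom and wide spread in GREEN, a change close to the median was called in some members and missed in others.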
